A study of Mus musculus and Homo sapiens with 41 samples.

Results

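The genes described here are 31 named genes of neutrophil maturation, among them secondary granule proteins, gelatinase granule proteases, cytosolic proteins and surface receptors. They were matched by symbol in the gene tables of mouse granulocyte-monocyte progenitors (GMPs) and of the 416b cell line. All 31 were listed among the 53756 rows of the GMP table, and 13 among the 13238 genes of the 416b table. The list was drawn up with the differences between these same GMP libraries known, so the differences between genotypes are given as a description, and a direction shared by the members supports nothing by itself. Of the 31 genes, 29 reached 10 normalized counts in 2 or more GMP libraries and entered the comparison across genes. Fpr1 and Mmp25 did not, and Ly6g and Fpr2 entered only through the mutant libraries.

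The series examined the transcription factor PLZF, encoded by Zbtb16, in myeloid progenitors by loss and by gain of function. For loss of function, bone marrow of Zbtb16 lu/lu mice, which carry the luxoid mutation of Zbtb16, or of WT mice was transplanted into lethally irradiated Cd45-1 hosts, all of the C57BL/6 strain. GMPs were then sorted from the reconstituted marrow as lineage negative, c-Kit+, Sca-1-, Cd34+ and FcγR+ cells. From each genotype, 2 libraries of total RNA depleted of ribosomal RNA were analysed here. WT 1 and Zbtb16 lu/lu 1 carry the same date in their column names, and WT 2 and Zbtb16 lu/lu 2 each carry another date. Donor age and the number of pooled animals are not given in the sources used here. For gain of function, cells of the Cd34+ mouse progenitor line 416b were transduced with an Empty vector or with PLZF-Flag, with 1 library per condition. The antibodies that removed lineage-positive cells before sorting included those to Cd11b, the product of Itgam, and to Gr-1, an epitope carried by Ly6g, so part of this gene group was itself a sorting criterion at the protein level.

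Neutrophils mature from GMPs through promyelocytes, myelocytes and metamyelocytes. Primary granules with myeloperoxidase and serine proteases are filled at the promyelocyte stage, secondary granules with lactoferrin and cathelicidin at the myelocyte stage, and gelatinase granules later. Receptors for chemoattractants and much of the S100 protein content accumulate in the last stages. C/EBP epsilon, together with Gfi1 and PU.1, is known for driving the secondary granule program.

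The GMP libraries held between 37562999 and 40170636 reads in genes, and the values are read counts divided by each library's size factor, called normalized counts here. Zbtb16, the mutated gene, stood at 705 and 828 normalized counts in WT 1 and WT 2 and at 369 and 269 in Zbtb16 lu/lu 1 and 2. In 416b cells it stood at 382 in the Empty library and 2541 in the PLZF-Flag library. No gene of 20531 passed limma with Benjamini-Hochberg adjustment at 0.08 (0%, smallest adjusted p = 0.299), while 2028 had an unadjusted p under 0.05. edgeR on recovered reads also called 0 genes and gave 2033 at an unadjusted p under 0.05, and DESeq2 called 220 of the 12968 genes to which it gave an adjusted p (1.70%). Both Zbtb16 lu/lu libraries lay above both WT libraries for 21.7% of all genes tested and below them for 22.1%.

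**Figure D1:**
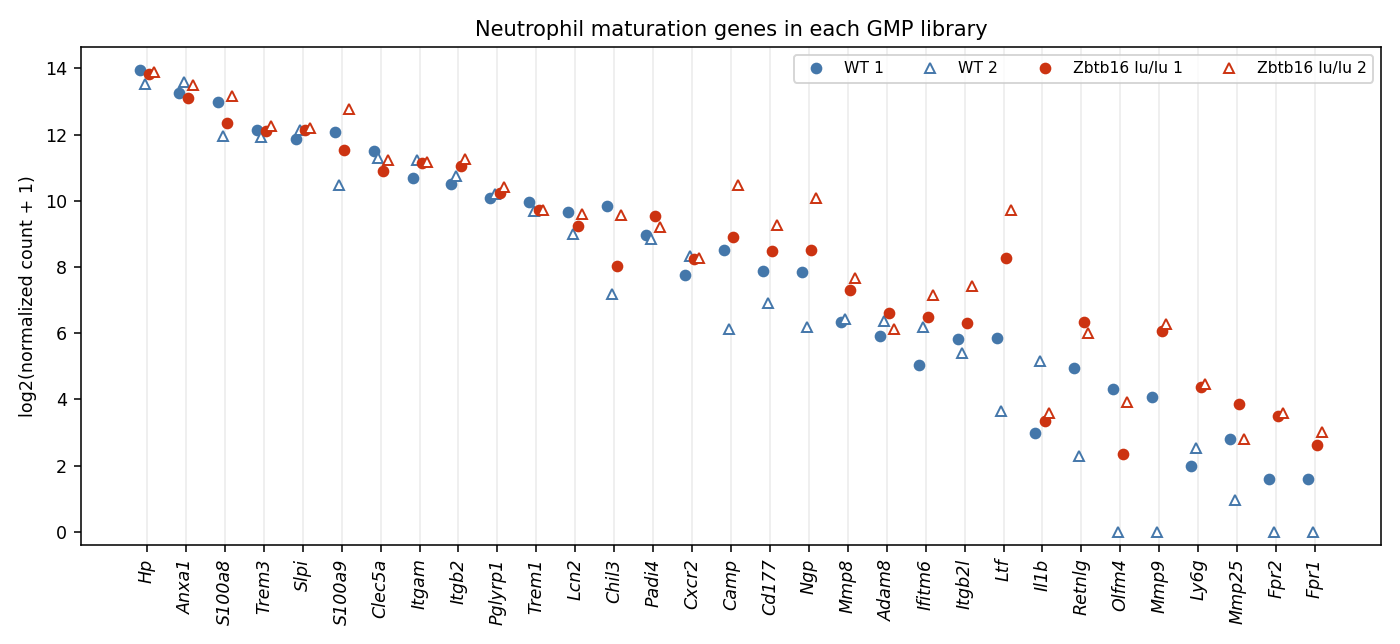
Normalized counts of the 31 genes in each GMP library, as log2(value + 1), in order of the WT mean. Circles are the libraries that share a date and triangles the others, with WT in blue and Zbtb16 lu/lu in red. The genes with the highest WT level, from Hp to Slpi, lie close together apart from S100a8, while Camp, Ngp and Ltf fan out with Zbtb16 lu/lu 2 at the top and WT 2 at the bottom.

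Among the 29 genes that entered the comparison, 14 lay higher in both Zbtb16 lu/lu libraries than in both WT libraries, 1 lay lower (Clec5a) and 14 overlapped. Their median log2 fold change was 0.46, beside -0.0063 over all genes tested, and 25 of the 29 were positive. An unadjusted p under 0.05 in limma was reached by 13 members, all positive, beside 5.50% of all genes tested with such a p and a positive change. Ly6g and Fpr2, which entered only through the Zbtb16 lu/lu libraries, are counted among the 14 and among the 13. None of the 29 passed the adjusted threshold in limma or in edgeR, with adjusted p from 0.299 to 0.915 in limma, and DESeq2 called Cd177, Ltf and Itgb2 out of the 19 members to which it gave an adjusted p. All of these shares describe the contrast on which the genes were chosen, and nothing is read from them. With a library left out, limma called 20 of the 29 members without WT 1 (22.7% of all genes tested), 16 without WT 2 (13.4%), 4 without Zbtb16 lu/lu 1 (0.312%) and 0 without Zbtb16 lu/lu 2 (0.00487%). The lone library of a genotype was then assumed to vary like the other genotype. In a bulk library, fewer cells of a type and less RNA per cell cannot be told apart.

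Among the secondary granule proteins, Ltf, Camp and Ngp were higher in both Zbtb16 lu/lu libraries. Ltf, which encodes the iron-binding protein lactoferrin, stood at 56.7 and 11.6 normalized counts in WT 1 and WT 2 and at 305 and 846 in Zbtb16 lu/lu 1 and 2. Camp, the precursor of the antimicrobial peptide cathelicidin, stood at 361 and 68.5 in WT and at 478 and 1435 in Zbtb16 lu/lu. Ngp, a cystatin-like granule protein, stood at 228 and 71.4 in WT and at 366 and 1079.9 in Zbtb16 lu/lu. For these 3 genes the groups did not overlap, and within each genotype the same library was high, WT 1 and Zbtb16 lu/lu 2. The log2 fold changes were 4.24 ± 0.69 (SE, n = 2 per group) for Ltf, 2.39 ± 0.71 for Camp and 2.29 ± 0.58 for Ngp, on the log2(value + 1) scale. Between the libraries of the same date alone they were 2.41, 0.40 and 0.68, and between the other libraries 6.07, 4.37 and 3.90, so the size depended on which pair was taken. With each library left out, the log2 fold change ranged from 3.14 to 5.34 for Ltf, from 1.20 to 3.58 for Camp and from 1.46 to 3.12 for Ngp.

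Cd177, a surface glycoprotein stored in secondary granules that binds proteinase 3 on the neutrophil membrane, stood at 235 and 119.6 in WT and at 359 and 621 in Zbtb16 lu/lu, a log2 fold change of 1.49 ± 0.36. Between the libraries of the same date the Cd177 difference was 0.61, and between the others 2.37. Mmp8, the neutrophil collagenase, stood at 80.5 and 85.8 in WT and at 158 and 202 in Zbtb16 lu/lu. The WT libraries of Mmp8 were nearly equal, and its log2 fold change of 1.09 ± 0.27 was 0.97 between the libraries of the same date and 1.22 between the others. Of the members with a log2 fold change above 1, Mmp8 had the smallest gap between these pairs. Pglyrp1, a peptidoglycan recognition protein that kills bacteria, also did not overlap but by a small margin, with 1089.8 and 1181 in WT and 1213 and 1373 in Zbtb16 lu/lu.

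Other secondary granule genes did not separate by genotype. Lcn2, the siderophore-binding lipocalin, stood at 801 and 513 in WT and at 597 and 783 in Zbtb16 lu/lu, and its log2 fold change was 0.09 ± 0.23. Hp, which encodes haptoglobin, stood at 15680.4 and 11826 in WT and at 14559.6 and 15048 in Zbtb16 lu/lu. Slpi, a serine protease inhibitor, stood at 3705 and 4504 in WT and at 4497 and 4716 in Zbtb16 lu/lu. Hp and Slpi were thus high in every library, with log2 fold changes of 0.12 and 0.17. Chil3, a chitinase-like lectin also made by macrophages, stood at 913 and 145 in WT and at 258 and 765 in Zbtb16 lu/lu, and Olfm4, an olfactomedin of a neutrophil subset, stood at 18.9 and 0 in WT and at 4.11 and 14.1 in Zbtb16 lu/lu. For Chil3 and Olfm4 the spread within a genotype was larger than the difference between genotypes. Their log2 fold changes of 0.29 ± 0.76 and 0.98 ± 1.39 became -1.82 and -1.96 between the libraries of the same date.

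The promoters of 6 genes are shown because these genes were at least 2-fold higher in WT 1 than in WT 2 and in Zbtb16 lu/lu 2 than in Zbtb16 lu/lu 1. Ltf, Camp and Ngp shared the whole order of the libraries, while S100a9, Chil3 and Olfm4 did not have that order. Olfm4 rested on at most 19 reads per library. Each line gives the 250 bases before the annotated start, 5′ to 3′ on the gene's strand, from RefSeq on GRCm38.p6. Capitals mark TTGCNNAA, a C/EBP-type motif, or GAGGAAGT, a PU.1-type motif, on either strand.
Ltf (chr9:111019042-111019291, plus strand): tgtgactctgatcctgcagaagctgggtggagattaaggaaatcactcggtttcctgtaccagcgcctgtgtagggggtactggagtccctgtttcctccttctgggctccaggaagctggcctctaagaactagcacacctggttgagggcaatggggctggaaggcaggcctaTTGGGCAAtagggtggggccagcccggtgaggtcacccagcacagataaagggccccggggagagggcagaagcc
Camp (chr9:109849457-109849706, minus strand): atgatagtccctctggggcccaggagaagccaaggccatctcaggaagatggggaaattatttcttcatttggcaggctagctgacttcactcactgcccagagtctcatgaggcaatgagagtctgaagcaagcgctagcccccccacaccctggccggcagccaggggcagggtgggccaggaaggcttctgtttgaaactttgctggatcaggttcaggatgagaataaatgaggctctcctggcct
Ngp (chr9:110419558-110419807, plus strand): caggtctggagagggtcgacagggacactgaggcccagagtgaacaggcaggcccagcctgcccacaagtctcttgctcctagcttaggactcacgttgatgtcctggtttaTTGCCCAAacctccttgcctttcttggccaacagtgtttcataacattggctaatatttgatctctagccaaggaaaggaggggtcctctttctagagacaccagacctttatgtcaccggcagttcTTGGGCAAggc
Chil3 (chr3:106167565-106167814, minus strand): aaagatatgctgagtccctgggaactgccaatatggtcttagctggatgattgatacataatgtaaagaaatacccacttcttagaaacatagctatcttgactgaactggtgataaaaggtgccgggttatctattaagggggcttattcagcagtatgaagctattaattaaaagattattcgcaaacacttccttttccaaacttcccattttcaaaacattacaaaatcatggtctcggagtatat
Olfm4 (chr14:80000052-80000301, plus strand): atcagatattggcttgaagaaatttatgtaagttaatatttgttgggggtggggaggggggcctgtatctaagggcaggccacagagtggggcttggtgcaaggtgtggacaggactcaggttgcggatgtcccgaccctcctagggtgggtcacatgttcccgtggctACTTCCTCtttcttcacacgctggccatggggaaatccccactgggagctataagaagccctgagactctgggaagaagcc
S100a9 (chr3:90695722-90695971, minus strand): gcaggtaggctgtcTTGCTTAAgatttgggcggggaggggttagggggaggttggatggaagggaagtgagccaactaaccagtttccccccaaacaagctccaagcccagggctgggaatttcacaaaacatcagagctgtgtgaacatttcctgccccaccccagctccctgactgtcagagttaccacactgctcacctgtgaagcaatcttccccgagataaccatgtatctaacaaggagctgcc

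Ngp had 2 matches to TTGCNNAA, at positions -138 and -11 from the start site, Ltf had 1 at -75 and S100a9 1 at -236. Olfm4 had a match to GAGGAAGT at position -81, while the Camp and Chil3 windows held neither string of letters. Over windows of 300 bases, from 250 before to 50 after the start, 27 of the 31 genes were matched by symbol. TTGCNNAA occurred in 10 of them (37.0%), namely Adam8, Anxa1, Lcn2, Ltf, Ly6g, Mmp8, Ngp, Retnlg, S100a9 and Slpi, beside 12.2% of all genes with a window. GAGGAAGT occurred in 5 (18.5%), namely Itgb2l, Ly6g, Mmp8, Olfm4 and S100a8, beside 3.69% of all genes. Mmp8 and Ly6g held both. Genes with a TTGCNNAA match included some with large differences between genotypes, such as Ltf, Ngp and Retnlg, and some with small differences, such as Lcn2, Slpi and Anxa1.

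The proteases of gelatinase granules and membranes stood at or below 96.6 normalized counts in every library. Mmp9, gelatinase B, stood at 15.9 in WT 1, was listed at 0 in WT 2 (a count of 0 allows up to 3 reads), and stood at 65.8 and 76.3 in Zbtb16 lu/lu. It rested on 16 reads in the WT libraries together and 140 in the Zbtb16 lu/lu libraries, a ratio of 9.08 with a counting interval of 5.40 to 16.3 (95%, exact binomial). Such an interval pools the reads of a genotype and covers counting error only, not the spread between libraries. All WT reads of Mmp9 came from WT 1. The groups did not overlap, and the log2 fold change was 4.13 ± 1.13. With WT 2 at 0, the value was 2.33 with a pseudocount of 10, 5.81 with 0.1 and 3.15 in edgeR on reads. It was 2.09 without WT 2 and 6.17 without WT 1. Mmp25, a membrane-type metalloproteinase of neutrophils, had 5.97 and 0.964 in WT and 13.4 and 6.02 in Zbtb16 lu/lu, too low for the comparison. Adam8, a membrane metalloprotease that sheds surface proteins, stood at 59.7 and 81.0 in WT and at 96.6 and 69.2 in Zbtb16 lu/lu. The Adam8 groups overlapped, with a log2 fold change of 0.23 ± 0.34.

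Of the cytosolic proteins, S100a8, S100a9 and Anxa1 overlapped between genotypes and Padi4 did not. S100a8 and S100a9 encode the subunits of calprotectin, the main calcium-binding protein of the neutrophil cytosol. S100a8 stood at 8098 and 3967 in WT and at 5199 and 9219 in Zbtb16 lu/lu, and S100a9 at 4284 and 1432 in WT and at 2953 and 7011 in Zbtb16 lu/lu. Both genes had the same order of libraries, from Zbtb16 lu/lu 2 through WT 1 and Zbtb16 lu/lu 1 to WT 2, so the genotypes overlapped. Their log2 fold changes were 0.29 ± 0.34 and 0.88 ± 0.50, and between the libraries of the same date they were -0.64 and -0.54. The S100a9 value was 0.087 without WT 2 and 1.67 without WT 1. Anxa1, an anti-inflammatory phospholipid-binding protein, stood at 9725 and 12225 in WT and at 8877 and 11637 in Zbtb16 lu/lu. Padi4, the deiminase that citrullinates histones during extracellular trap formation, stood at 501 and 463 in WT and at 750.5 and 589 in Zbtb16 lu/lu. The log2 fold change of Padi4 was 0.46 ± 0.18 (0.29 to 0.64 with each library left out).

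**Figure D2:**
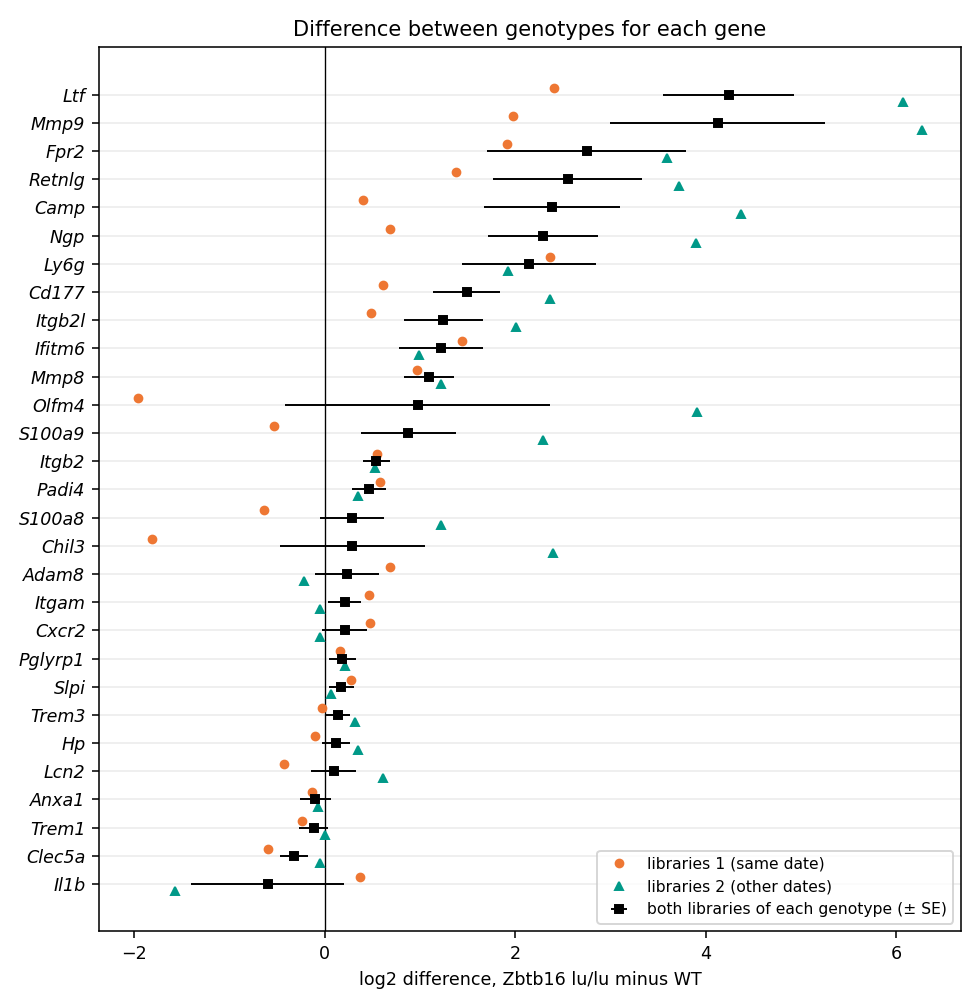
Log2 difference between Zbtb16 lu/lu and WT for the 29 genes compared, on the log2(value + 1) scale. Squares with bars are the fold change over 2 libraries per genotype ± SE, orange circles the difference between the libraries of the same date, and green triangles that between the other libraries. Itgb2, Mmp8 and Ly6g have circles and triangles close together, while Olfm4, Chil3, S100a8 and S100a9 have them on opposite sides of 0.

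Surface receptors and adhesion molecules covered a wide range of levels. Itgb2, the common beta chain of the leukocyte integrins, stood at 1452 and 1711 in WT and at 2126 and 2465 in Zbtb16 lu/lu. Its log2 fold change of 0.54 ± 0.14 was the most even among the 29 genes, at 0.55 between the libraries of the same date and 0.53 between the others. Itgam, the alpha chain that pairs with Itgb2 to form Mac-1, stood at 1645 and 2401 in WT and at 2267 and 2324 in Zbtb16 lu/lu, so its groups overlapped. Itgb2l, a beta integrin-like gene next in family to Itgb2, stood at 55.7 and 41.5 in WT and at 78.1 and 169.6 in Zbtb16 lu/lu, with a log2 fold change of 1.24 ± 0.42 (0.69 to 1.80 with each library left out). The groups of Itgb2l did not overlap, and Zbtb16 lu/lu 2 was at least 2-fold above Zbtb16 lu/lu 1.

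Cxcr2, the receptor for the chemokines that release neutrophils from marrow, stood at 216 and 320.2 in WT and at 299 and 308 in Zbtb16 lu/lu. The genotypes of Cxcr2 overlapped, with WT 1 lowest and WT 2 highest. The formyl peptide receptors Fpr1 and Fpr2 sense bacterial products and were close to the limit of detection, each with 2 reads in WT 1 and 0 in WT 2. Fpr2 had 10 and 11 reads in the Zbtb16 lu/lu libraries, a ratio of 10.9 with a counting interval of 2.66 to 95.8, and Fpr1 had 5 and 7, a ratio of 6.22 with an interval of 1.39 to 57.3. Ly6g, the surface protein most used to mark mature mouse neutrophils, stood at 2.98 and 4.82 in WT and at 19.5 and 21.1 in Zbtb16 lu/lu. Ly6g did not overlap and was even within each genotype, but it rested on 8 reads in WT and 40 in Zbtb16 lu/lu, a ratio of 5.19 with a counting interval of 2.39 to 12.8. The intervals of Fpr1, Fpr2 and Ly6g cover counting error only, not the spread between libraries.

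The receptors Trem1 and Clec5a amplify inflammatory signals through DAP12. Clec5a was the only member lower in both Zbtb16 lu/lu libraries, with 2904 and 2486 in WT and 1914 and 2408 in Zbtb16 lu/lu, and a log2 fold change of -0.32 ± 0.15. It was -0.60 between the libraries of the same date and -0.046 between the others, and leaving out single libraries gave -0.49 to -0.16. Trem1 stood at 997 and 832 in WT and at 845 and 835 in Zbtb16 lu/lu. Trem3, a neighbour of Trem1 in the genome and in family, stood at 4515 and 3908 in WT and at 4423 and 4854 in Zbtb16 lu/lu. Both Trem genes overlapped between genotypes. Ifitm6, an interferon-induced transmembrane family member, stood at 31.8 and 71.4 in WT and at 88.4 and 143 in Zbtb16 lu/lu, with a log2 fold change of 1.22 ± 0.44 (0.65 to 1.79 with each library left out) and no overlap.

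Of the secreted proteins, Retnlg did not overlap between genotypes and Il1b did. Retnlg, a resistin-like protein of mature neutrophils, stood at 29.8 and 3.86 in WT and at 79.2 and 63.2 in Zbtb16 lu/lu, a log2 fold change of 2.55 ± 0.78. It was 1.22 without WT 2, 3.88 without WT 1 and 1.78 with a pseudocount of 10. Il1b, the inflammatory cytokine interleukin-1 beta, stood at 6.96 and 34.7 in WT and at 9.25 and 11.0 in Zbtb16 lu/lu. WT 2 alone made the Il1b mean of WT high, and the log2 fold change of -0.60 ± 0.80 was 0.37 between the libraries of the same date. The 10 largest log2 fold changes among the members were those of Ltf, Mmp9, Fpr2, Retnlg, Camp, Ngp, Ly6g, Cd177, Itgb2l and Ifitm6, with limma adjusted p between 0.299 (Ltf) and 0.468 (Fpr2), where Fpr2 had 2.75 ± 1.05 and Ly6g 2.14 ± 0.70. With a pseudocount of 10, Fpr2 had 0.92 and Ly6g 1.13, and with 0.1 they had 4.56 and 2.39. In edgeR they had 3.29 and 2.34, and with each library left out Fpr2 ranged from 1.96 to 3.54 and Ly6g from 1.87 to 2.42.

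Levels compared per kilobase of exon placed the members at both ends of the GMP range. S100a8 at 8692 and Hp at 8564 normalized counts per kb in the WT mean reached percentiles 98.4 and 98.3 of the genes tested. S100a9, Trem3, Anxa1 and Slpi stood between 3478 and 5475 per kb, at percentiles 95.6 to 97.3. Camp at 283 and Ngp at 122 per kb lay at percentiles 59.8 and 43.3 in WT and at 88.1 and 75.9 in the Zbtb16 lu/lu mean, with 1262 and 592 per kb. Ltf lay at percentile 10.2 with 9.89 per kb in WT and at 48.9 with 167 per kb in Zbtb16 lu/lu. Mmp9, Fpr1, Fpr2, Mmp25 and Olfm4 were at or below percentile 2.88 in WT, with at most 3.19 per kb. Summed over the 31 genes, normalized counts were 57719 in WT 1, 48510 in WT 2, 52915 in Zbtb16 lu/lu 1 and 69110 in Zbtb16 lu/lu 2, or between 0.126% and 0.172% of a library. Zbtb16 lu/lu 1 lay below WT 1 in this sum, so the genotypes overlapped in it.

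Libraries of the same genotype lay further apart for the members than for the genes tested as a whole. The median absolute log2 difference between WT 1 and WT 2 was 0.57 over the 29 genes and 0.28 over all genes tested, and between the Zbtb16 lu/lu libraries it was 0.35 and 0.15. At least 2-fold higher in WT 1 than in WT 2 were 10 members, beside 4.98% of all genes, namely Olfm4, Mmp9, Retnlg, Chil3, Camp, Ltf, Ngp, S100a9, Fpr2 and S100a8. Of these, Olfm4, Mmp9 and Fpr2 were listed at 0 in WT 2, and Fpr2 had only 2 reads in WT 1. Ifitm6 and Il1b were at least 2-fold lower. At least 2-fold higher in Zbtb16 lu/lu 2 than in Zbtb16 lu/lu 1 were 7 members, beside 1.61% of all genes, namely Camp, Chil3, Ngp, Olfm4, Ltf, S100a9 and Itgb2l. The 6 genes whose promoters are shown above met both conditions, beside 61 of 20531 genes (0.297%). Among the dendritic cell markers, Cd74, H2-Eb1 and H2-Aa met both conditions too, so the pattern was not particular to the members. The 6 members include genes with large differences between genotypes (Ltf, Camp, Ngp) and genes without (Chil3, Olfm4), and no test was made of this set, which was picked by its values. Of the 29 genes compared, 7 had the order Zbtb16 lu/lu 2, Zbtb16 lu/lu 1, WT 1, WT 2, beside 7.03% of all genes tested, and 17 had their lowest value in WT 2, beside 32.2%. Fpr2, which entered only through the Zbtb16 lu/lu libraries, is counted in both patterns. Both patterns include the contrast on which the genes were chosen, and nothing is read from them.

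**Figure D3:**
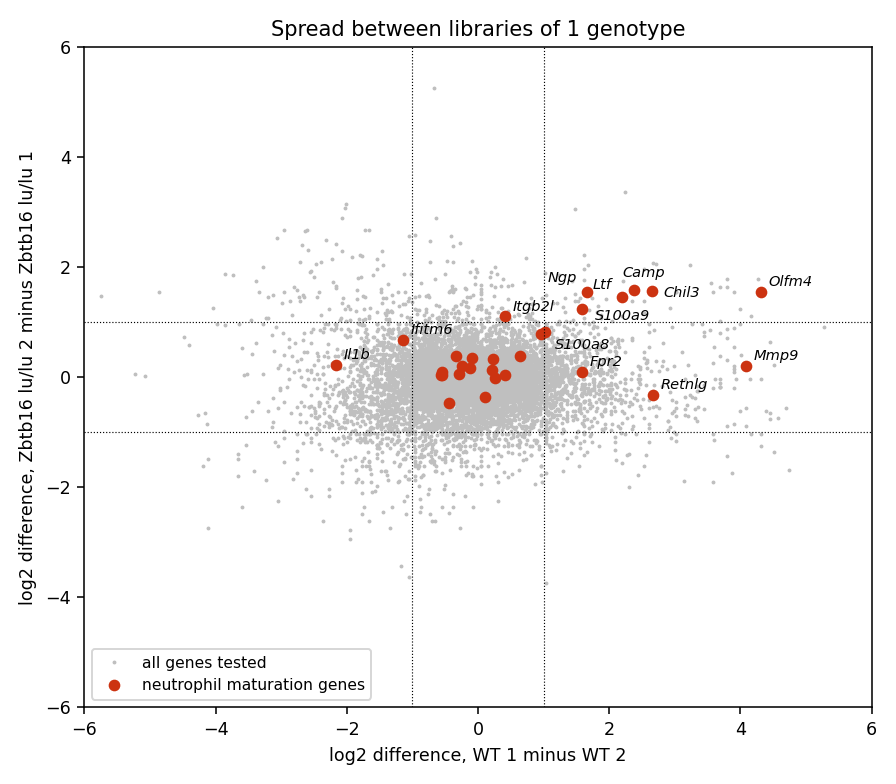
Log2 difference between the WT libraries (x axis) and between the Zbtb16 lu/lu libraries (y axis) for all 20531 genes tested (grey) and the 29 genes described (red), on the log2(value + 1) scale. Dotted lines mark a 2-fold difference, and 6 of the red points lie beyond it in the upper right.

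Other genes of the neutrophil program are given as counts and medians, and were not compared with the members by a test. Over all genes tested, 21.7% lay above and 22.1% below in both Zbtb16 lu/lu libraries. Of 12 primary granule proteins, 5 lay above and 2 below in both Zbtb16 lu/lu libraries, the median log2 fold change was 0.10, and the most abundant, Mpo (myeloperoxidase), had 0.19 ± 0.16. The serine proteases Ctsg, Prtn3 and Elane, made at the same stage, had 0.11, 0.39 and 0.37. The genes below were Ms4a3 at -0.21 and Gusb at -0.13. Of 36 other neutrophil maturation genes, 29 entered the comparison, and their median was 0.17. Of these, 11 lay above and 0 below, beside 21.7% and 22.1% of all genes tested. The most abundant were Ly6c2 at 0.39, Tyrobp at 0.42, Cxcr4 at 0.021 and Msrb1 at 0.17. Lyz2, the lysozyme of neutrophils and macrophages, stood at 4398 and 5574 in WT and at 7260 and 8992 in Zbtb16 lu/lu, and Fcer1g, a signalling chain of Fc receptors, at 1625 and 1702 in WT and at 2239 and 2490 in Zbtb16 lu/lu. DESeq2 called these 2 genes of the list, beside 1.70% of all genes to which it gave an adjusted p, and limma called 0. Some genes of this list, named after their values were seen, were at or near the limit of detection, with BC100530 listed at 0 in all 4 libraries, Stfa1, Stfa2, Stfa3 and Stfa2l1 between 0 and 5.14, and Asprv1 between 0 and 4.11.

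Of 14 neutrophil transcription factors and cytokine receptors, 5 lay above and 0 below, beside 21.7% and 22.1% of all genes tested, with a median of 0.10. Cebpe, the C/EBP factor of secondary granule genes, stood at 2074 and 1444 in WT and at 2072 and 2282 in Zbtb16 lu/lu, a log2 fold change of 0.33 ± 0.18 with overlap. Cebpa had 0.10, Gfi1 0.11, Spi1 (PU.1) 0.21 and Csf3r, the receptor for G-CSF, 0.07. Irf8, a factor that favours monocytes over neutrophils, stood at 9786 and 9305 in WT and at 13887 and 14277 in Zbtb16 lu/lu, and Csf2ra, the GM-CSF receptor alpha chain, at 1273 and 1059 in WT and at 1980.1 and 1878 in Zbtb16 lu/lu. These 2 were called by DESeq2, beside 1.70% of all genes to which it gave an adjusted p, and limma called 0 of the 14.

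**Figure D4:**
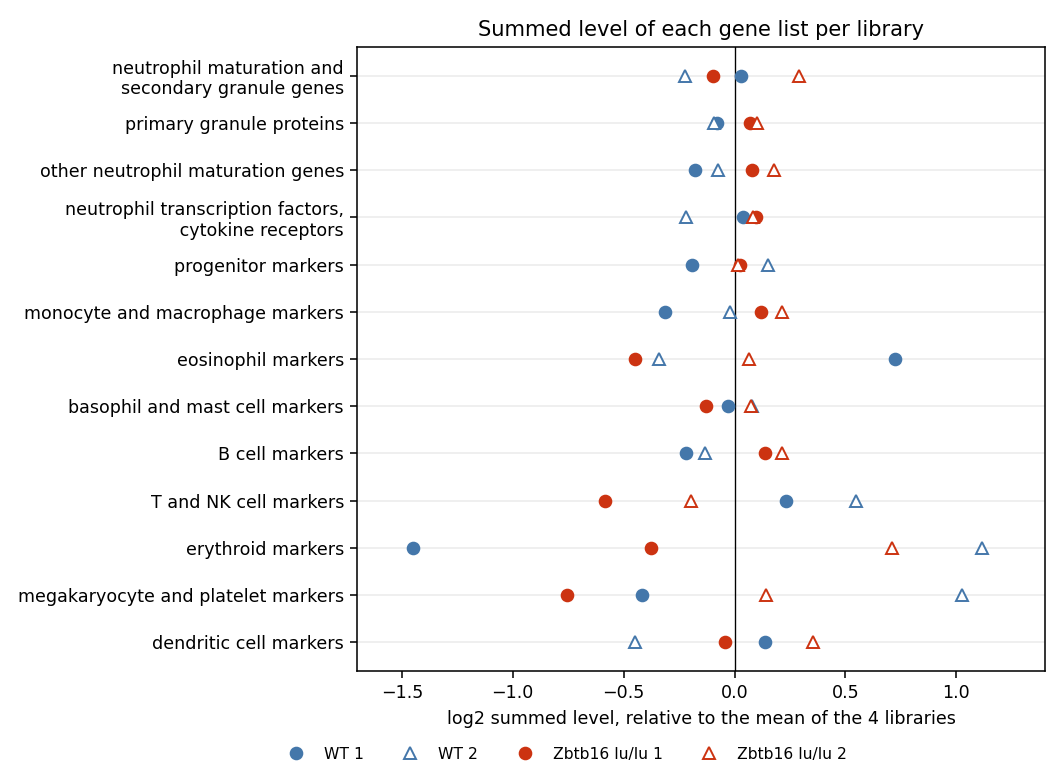
Summed normalized count of each gene list per library, as log2 relative to the mean over the 4 libraries, with symbols as in the plot of members by library. The summed level of the 31 members is set mainly by its most abundant genes and overlaps between genotypes, while erythroid markers differ most between libraries of the same genotype.

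Markers of other cells moved between the libraries as well, with limma calling 0 genes in each list. The counts above and below stand beside 21.7% above and 22.1% below over all genes tested. Of 14 monocyte and macrophage markers compared, 10 lay above in both Zbtb16 lu/lu libraries, with a median log2 fold change of 0.36, and summed levels of 51068 and 62512 in WT and 68802 and 73466 in Zbtb16 lu/lu. Eosinophil markers had a median of -0.38 with 1 of 8 below in both libraries, and their sum was 14082 in WT 1 beside 6741 in WT 2, 6249 in Zbtb16 lu/lu 1 and 8926 in Zbtb16 lu/lu 2. Erythroid markers overlapped, with sums of 361 in WT 1, 2142 in WT 2, 761 in Zbtb16 lu/lu 1 and 1614 in Zbtb16 lu/lu 2. Megakaryocyte and platelet markers had a median of -0.67, with 6 of 8 negative and all overlapping, and sums from 1827 (Zbtb16 lu/lu 1) to 6271 (WT 2). Dendritic cell markers had a median of 0.45, with 7 of 7 positive and 1 above in both libraries, and sums from 1753 (WT 2) to 3062 (Zbtb16 lu/lu 2), in the same order of libraries as S100a9. Basophil and mast cell markers had a median of -0.29, with 6 of 7 negative and 2 (Prss34 and Ms4a2) below in both libraries. Their sums ranged from 18043 to 20804 and overlapped. Without Hdc, the highest in normalized counts, they were 9653 and 9385 in WT and 6637 and 8646 in Zbtb16 lu/lu, without overlap. Per kb of exon in the WT mean, Cpa3 (2743.5) and Mcpt8 (2324) stood above Hdc (1650). Sums without either of these were not taken, so the separation is given for leaving out Hdc only. B cell markers summed to 5607 and 5947 in WT 1 and WT 2 and to 7160 and 7564 in Zbtb16 lu/lu 1 and 2, without overlap, and 2 of the 3 that entered the comparison lay above in both Zbtb16 lu/lu libraries. T and NK cell markers summed to 165 and 205 in WT and to 93.6 and 122 in Zbtb16 lu/lu, also without overlap. Lat, the most abundant of them, stood at 131 and 174 in WT and at 26.7 and 83.3 in Zbtb16 lu/lu, a log2 fold change of -1.65, and without it the sums ran the other way, at 33.8 and 31.8 in WT and 66.8 and 39.1 in Zbtb16 lu/lu. Cd3d, the other gene of this list compared, stood at 2.98 and 3.86 in WT and at 19.5 and 12.04 in Zbtb16 lu/lu, a log2 fold change of 1.90. Cd3e, Cd3g, Trac and Trbc2 stood at or below 6.17 in every library, and none of them lay above in both Zbtb16 lu/lu libraries. The B cell sum was carried by Ighm, at 4457 and 4865 in WT and 5928 and 6246 in Zbtb16 lu/lu with a log2 fold change of 0.39, and by Cd79b, at 1103 and 1055 in WT and 1183 and 1270 in Zbtb16 lu/lu. Pax5 and Cd79a stayed at or below 7.03 in every library. Progenitor markers, the identity of the sorted cells, ranged from 103241 to 130807 with a median of 0.09, and Kit, Cd34 and Fcgr3 stood at or above 6511 in every library. The part of these markers in the differences between genotypes was not tested.

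In 416b cells, 13 of the 31 genes were listed, and 10 of them had a mean of at least 10 in the 2 libraries. The table lists genes with reads in both libraries, so it gives no value for Ltf, Camp, Ngp, Mmp8, S100a8, S100a9, Ly6g, Retnlg, Chil3, Fpr1, Fpr2, Itgb2l, Ifitm6, Olfm4, Hp, Mmp25, Trem3 or Il1b. Depth was 54529635 reads for Empty and 19995828 for PLZF-Flag. With 1 library per condition there is no replicate check, and the intervals given (95%, exact binomial, on reads) cover counting error only. The log2 ratios are on the log2(value + 1) scale, while the intervals are of the plain read ratio, so the 2 differ slightly at low counts.

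The surface receptors dominated this set. Cxcr2 stood at 8053 normalized counts with Empty and 8313 with PLZF-Flag, which gave a log2 ratio of 0.046 with an interval of -0.0011 to 0.093. Itgam stood at 6023 and 4081, a log2 ratio of -0.56 (-0.63 to -0.50), and Itgb2 at 3008 and 3164, a log2 ratio of 0.07 (-0.0039 to 0.15). Itgam was thus lower with PLZF-Flag, and 3.37% of the 11836 genes with a mean of at least 10 had a ratio as low, while its integrin partner Itgb2 was not. Adam8 stood at 467 and 329, a log2 ratio of -0.51 (-0.74 to -0.28), and 3.95% of genes had a ratio as low. Anxa1 stood at 1402 and 1325, with a log2 ratio of -0.08 (-0.20 to 0.04).

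The other listed members were low in 416b cells. Mmp9 stood at 65.4 in Empty and 77.7 in PLZF-Flag, and Slpi at 49.0 and 36.4, with intervals that included 0. Cd177 stood at 7.87 and 21.5 on 13 reads in each library, a log2 ratio of 1.34 (0.22 to 2.68), and of the 10 members with a mean of at least 10 it alone was at least 2-fold apart. Among all genes with a mean of at least 10, 0.498% were at least 2-fold higher and 0.912% at least 2-fold lower. Pglyrp1 stood at 12.7 and 8.26, Clec5a at 8.47 and 12.4, Trem1 at 5.45 and 11.6, Padi4 at 3.03 and 1.65, and Lcn2 at 2.42 and 4.96, each on 21 reads or fewer per library and with an interval that included 0. Trem1 and Lcn2, with a mean under 10, were thus also more than 2-fold apart as a ratio of normalized counts. The median log2 ratio of the 10 members was -0.017, beside -0.00014 over all 11836 genes, and 5 of the 10 were above 0.

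**Figure D5:**
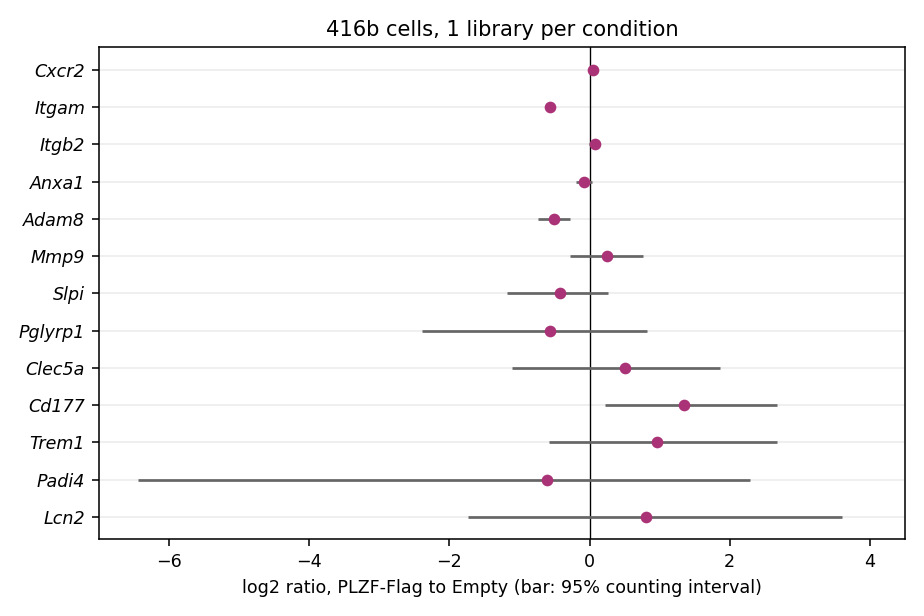
Log2 ratio of PLZF-Flag to Empty for the 13 listed genes in 416b cells, on the log2(value + 1) scale, ordered by the Empty level. Bars are 95% exact binomial intervals of the plain read ratio, without the added 1, and those of Itgam, Adam8 and Cd177 exclude 0.

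The values of members listed in both experiments are set side by side, with no test between the experiments. Cd177 had a log2 difference above 1 in both experiments, 1.49 in Zbtb16 lu/lu GMPs and 1.34 in PLZF-Flag 416b cells. Mmp9, at 4.13 in GMPs, had 0.25 in 416b cells (-0.28 to 0.76). Itgam and Adam8, lower with PLZF-Flag in 416b cells, had 0.21 ± 0.18 and 0.23 ± 0.34 in GMPs, with overlapping genotypes. The listed genes also ranked differently in the 2 cell types, whose tables were normalized separately. Cxcr2 stood at percentile 93.6 of 416b genes per kb and at percentile 37.7 of WT GMP genes, and Slpi at 16.5 in 416b cells and 95.6 in WT GMPs. The GMP libraries were depleted of ribosomal RNA and the 416b libraries were made with a SMART-Seq kit, so the cell type and the library method cannot be told apart.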

How the data were processed

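RNA-seq of sorted GMPs (2 libraries per genotype) and of 416b cells (1 per condition) was used. Other assays of the 41 samples were not analysed here. The authors aligned reads to mm10 (subread-align 1.5.0 per the study's methods), obtained counts per gene with featureCounts (1.5.0 in the submitters' processing notes) and scaled each library by its DESeq2 size factor. The deposited signal values are thus normalized counts. The annotation release is not given in the sources used here. The study's methods describe 3 RNA extractions for GMPs, and 2 columns per genotype were used here. Whether they share animals is not given, so the spread between them may be partly technical. Both columns of a genotype carry the same sample label.

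Values were compared as log2(value + 1) with limma-trend 3.58.1 (R 4.3.3), genes at or above 10 in at least 2 libraries, Benjamini-Hochberg adjustment and a threshold of 0.08. All GMP values were whole multiples of a smallest value (tolerance 0.1 read), which gave the reads for read ratios and for edgeR 4.0.16 and DESeq2 1.42.0 as alternatives. In WT 1 and Zbtb16 lu/lu 2, 1 read was worth 0.994 and 1.0036, so low values there are nearly whole with or without rescaling and the recovery rests on higher values. For 416b cells 84.8% and 85.5% of values were whole. Exon lengths came from GENCODE M21 (GRCm38). Itgam has 2 rows in the GMP table, and the higher was used. Of the columns per sample, 2 (log2 values of 416b cells) and the authors' means, fold changes and p-values were not used. No row lacked a gene name.

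The members and gene lists were chosen with earlier results of these data known. Each member is described with its value in every library. For other lists, the most abundant genes and those called by any tool are named, with Cebpe, Ms4a3, Cd3d, Prss34, Ms4a2, Gusb, the defining B cell and progenitor markers and genes near the limit of detection, and the sums without Lat or Hdc, added after their values were seen. Cd3e, Cd3g, Trac, Trbc2, Cd74, H2-Aa, H2-Eb1, Cpa3 and Mcpt8 were also named after their values were seen. Alternatives were other filters, pseudocounts, scalings and tools, and each library left out.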

Additional observations from a re-analysis of the deposited data

How the results depend on the processing

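With a library left out, 3 libraries leave 1 residual degree of freedom, and the lone library is assumed to vary like the other genotype. Genes called by limma then numbered 4662 without WT 1, 2749 without WT 2, 64 without Zbtb16 lu/lu 1 and 1 without Zbtb16 lu/lu 2, and members called ranged from 0 to 20. The cause was not tested. DESeq2 called 220 genes and 3 members. Members above in both Zbtb16 lu/lu libraries numbered 8 of 20 with a mean of at least 100 (20.9% of all genes), and 15 to 22 of 29 with a library left out (30.9% to 40.9%), where fewer libraries have to be separated. The members' median log2 fold change stayed positive under every alternative run, from 0.25 to 0.70 (0.46 as reported).

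Between the libraries of the same date alone, the log2 difference changed sign for Trem3 (-0.030), S100a9 (-0.54), Hp (-0.11), S100a8 (-0.64), Lcn2 (-0.42), Chil3 (-1.82), Olfm4 (-1.96) and Il1b (0.37). Chil3 and Olfm4 also changed sign in edgeR (-0.051 and -0.048) and DESeq2 (-0.045 and -0.051). With each library left out, ranges that crossed 0 were -0.065 to 0.48 for Itgam, -0.25 to 0.013 for Trem1, -0.077 to 0.49 for Cxcr2, -0.083 to 0.32 for Hp, -0.30 to 0.094 for Anxa1, -0.23 to 0.80 for S100a8, -0.23 to 0.41 for Lcn2, -1.04 to 1.61 for Chil3, -1.18 to 3.13 for Olfm4, -1.68 to 0.48 for Il1b and -0.0059 to 0.47 for Adam8. Chil3 was called in opposite directions without WT 1 and without WT 2. The cause was not tested.

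In 416b cells the median log2 ratio was 0.046 without the filter (13 genes), and 0 members were 2-fold apart with a pseudocount of 10, or with a mean of at least 100, which leaves out Cd177. Depth limits Fpr1, Fpr2, Ly6g, Mmp25, Mmp9 and Olfm4 in GMPs and Cd177, Trem1, Padi4 and Lcn2 in 416b cells. No paired analysis was possible because the column names give no replicate numbers, and the genotypes share 1 date only.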

Other observations

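Several members lie close together in the genome (GRCm38, GENCODE M21). Camp, Ngp and Ltf follow each other on chromosome 9 with gaps of 570.1 kb and 596 kb, and they had the same order of libraries, with Zbtb16 lu/lu 2 highest and WT 2 lowest. Cd177, Itgb2l, Mmp9, Fpr1 and Fpr2, on other chromosomes, also had that order. Slpi and Mmp9 lie 551.7 kb apart on chromosome 2 and had different orders of libraries. S100a8 and S100a9 lie 22.6 kb apart on chromosome 3 and also shared their order of libraries, as did Trem3 on chromosome 17, while Chil3, on the same chromosome, lies 15452 kb from S100a9. Fpr1 and Fpr2 lie 3.88 kb apart on chromosome 17, on opposite strands. Trem1 and Trem3 lie 0.853 kb apart on chromosome 17, with log2 fold changes of -0.12 ± 0.15 and 0.14 ± 0.12. The column names of the GMP table carry the word unique, and the sources used here say nothing else on how reads that match more than 1 gene of a family were counted.

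The second row of Itgam in the GMP table held 1366 and 1967 normalized counts in WT and 1847 and 1925 in Zbtb16 lu/lu, and its log2 fold change of 0.20 was close to the 0.21 of the row used.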
